A study of Mus musculus with 10 samples.

Results

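Genes of vesicle fusion and membrane trafficking were followed in the midbrain of mice with collagen-induced arthritis. Members were chosen by symbol: every probe with a single gene symbol that begins with Rab, Stx, Snap, Syt, Vps or Sec and a digit, or with Stxbp, Vamp, Sv2 or Cplx, or that reads Syn1 to Syn3 or Syp. This gave 107 of the 10080 probes on the array, for 102 of 8726 named genes. They were split by name into 28 synaptic genes, whose products act in regulated exocytosis at synapses and in secretory cells, and 74 genes of general trafficking.

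The arthritic mice were DBA/1 males of 8 weeks, an inbred strain prone to arthritis after immunisation with type II collagen, and received 100 ul of collagen with 100 ul of complete Freund's adjuvant into the skin. Control mice of the same strain, sex and age received 200 ul of the adjuvant and no collagen. On day 24 every mouse also received LPS (endotoxin). Endotoxin was thus common to arthritic and control mice, as was adjuvant, though at 100 ul against 200 ul as labelled. Death is labelled 31 with an unclear unit. Each of 10 two-colour arrays held RNA of both groups, with the dyes swapped within each of 5 pairs of arrays. The series states 3 biological replicates, and which arrays belong to each was read from a number in the sample titles. Read so, replicates 1 and 2 had 2 pairs each and replicate 3 had 1 pair. The labels do not say how many animals gave each RNA. P-values and intervals rest on the spread between these 3 replicates, which the test moderates with the spread of all tested probes. The comparison asks what differs in the midbrain of mice given collagen, from which the smaller adjuvant volume cannot be told apart.

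Membrane traffic moves cargo in vesicles that bud from one compartment and fuse with the next. Coat proteins form the vesicle, Rab GTPases and tethering complexes (many with Vps names) bring it to its target, and SNARE proteins on both membranes (the Stx, Snap and Vamp families, with Sec22b) zip together to drive fusion. At the synapse the same machinery is tuned for speed. Synapsins hold vesicles in a reserve, synaptotagmins sense calcium, and complexins and Stxbp proteins control when the SNAREs engage. Neurons of the midbrain, the dopamine cells among them, release their transmitters through this machinery.

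All ratios are log2 collagen over control, so a negative value means a lower signal in arthritis. The sources do not state the direction, and the one used is the likely one. Scanner channel A was taken as Cy3, the first label, and under the opposite assignment every sign below would turn. Of the 102 genes, 69 were measured in all 3 replicates and tested, which is 67.6% against 42.8% of all named genes on the array. Among the synaptic genes 20 of 28 were tested, and among the general ones 49 of 74. For 4 genes a pair of probes was tested, and the brighter probe stood for the gene. Between 40 and 69 of the tested genes had a ratio on any one array.

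No member passed the test for a difference between arthritic and control mice. With limma, 0 of 69 genes had an adjusted p under 0.05, against 0% of all 4139 tested probes, and the smallest adjusted p among the members was 0.827. At an unadjusted p under 0.05 there were 2 members, Sec14l2 and Syn1, against 3.94% of all probes. The mean ratios of the 69 genes lay between -0.35 and 0.21, and 45 of them lay within 0.1 of 0. The 95% interval of the ratio stayed inside a 2-fold change for all 69 genes and inside 1.5-fold for 65, each taken on its own. This was near the share of the whole array, where 4111 of 4139 probes stayed inside 2-fold. Inside 1.5-fold were 94.2% of the members and 93.2% of all probes. In these bulk samples fewer cells of a type and less RNA per cell cannot be told apart.

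The synaptic genes leaned lower in the mean without any of them passing. Members and classes were set with earlier results of these data known, so the split is a description and no test of the lean. Of the 20 synaptic genes tested, 17 had a mean ratio below 0 and 3 above it, where 59.2% of all tested probes lay below 0. Of the 49 general genes, 28 lay below 0 and 21 above. The synaptic median was -0.08, the general median -0.02 and the median of all tested probes -0.02. Consistency over replicates was no higher than elsewhere on the array: 4 of the 20 synaptic genes were below 0 in all 3 replicates, and 20.8% of all probes were. None of the synaptic genes was above 0 in all 3 replicates, against 8.92% of all probes. The count of 17 became 9 of 20 with a normexp background correction. In the authors' value table, taken as deposited, 9 of 16 were below 0. The direction of that table is unstated, so its signs cannot decide on the lean. With the channel letters read as the RNA the count was 9 of 20, and the synaptic median turned to 0.09. That reading equals the ratio of channel B over A, in which the treatment given by the dye labels cancels.

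The lean of the synaptic genes differed in size between replicates. Their median was -0.06 in replicate 1, -0.03 in replicate 2 and -0.13 in replicate 3, where the medians of all tested probes were -0.04, -0.02 and -0.02. The synaptic median minus the general median was -0.05, -0.02 and -0.11 in the same order. In replicate 1 the first pair had a synaptic median of -0.15 over 13 genes, and all tested probes had -0.15 too. The second pair of replicate 1 had -0.01 over 19 genes, against 0.01 over all probes. In replicate 2 the first pair had -0.11 over 14 genes, against -0.05 over all probes. The second pair of replicate 2 had -0.02 over 20 genes, against -0.01. Replicate 3 rests on 1 pair of arrays, and its arrays differed: the synaptic median was -0.20 with the collagen RNA in Cy3 and 0.04 with it in Cy5. For all tested probes those medians were -0.05 and 0.02. Without replicate 3 the difference between the class medians was -0.02, against -0.05 with all replicates.

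**Figure D1:**
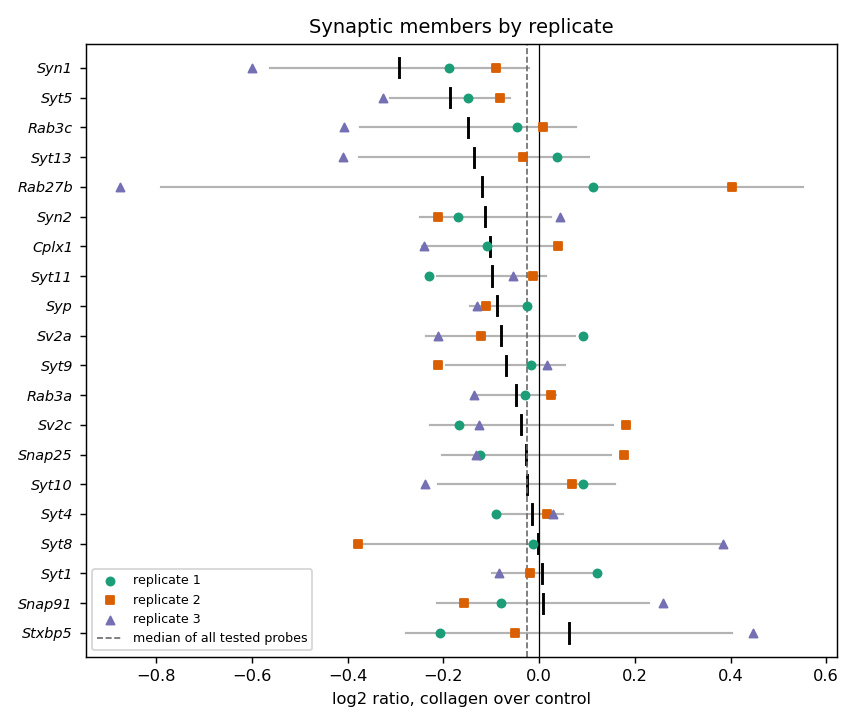
The 20 synaptic genes tested, one row per gene, with the log2 ratio of collagen over control on the x axis. Coloured symbols are the 3 replicates, black ticks their mean, grey lines the mean ± SD, and the dashed line the median of all tested probes. Of the means, 17 lie left of 0, and Rab27b has the widest spread.

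The synapsins, synaptophysin, the Sv2 proteins and the tested Rab3 genes had means below 0, 7 of 7, a grouping made with earlier results known. Syn1, a synapsin that tethers vesicles to actin and to each other, had -0.19, -0.09 and -0.60 in replicates 1, 2 and 3. All 3 values were negative and replicate 3 gave most of the mean of -0.29 ± 0.27 (SD, n = 3; limma adjusted p = 0.827). Its log2 intensity averaged 18.62 in the collagen channel and 18.91 in the control channel. Syn2, the second synapsin, had -0.17, -0.21 and 0.04, for a mean of -0.11 ± 0.14. Syp, synaptophysin, an abundant vesicle membrane protein, had -0.03, -0.11 and -0.13, and its mean of -0.09 ± 0.06 had the narrowest SD of the synaptic class.

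Sv2a, a vesicle glycoprotein and the binding site of the anti-seizure drug levetiracetam, had 0.09, -0.12 and -0.21 in the replicates. Its relative Sv2c, which is enriched in basal ganglia and midbrain, had -0.17, 0.18 and -0.13. Both changed sign between replicates. Rab3a, the main Rab of synaptic vesicles, had -0.03, 0.02 and -0.14, and Rab3c, a close relative, had -0.05, 0.01 and -0.41. Rab27b, a Rab of secretory granules, had 0.11, 0.40 and -0.88, the widest spread of any member (SD 0.67). In replicate 3 its arrays stood at -1.83 with the collagen RNA in Cy3 and at 0.08 with it in Cy5.

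Of the 8 synaptotagmins tested, 7 had means below 0, with a family median of -0.05. Syt5 led them with -0.15, -0.08 and -0.33, a mean of -0.19 ± 0.13 (SD, n = 3; limma adjusted p = 0.827). On single arrays Syt5 followed the dye. With the collagen RNA in Cy3 all 5 arrays were negative, from -0.21 to -0.69, and with it in Cy5 they ran from -0.08 to 0.61. Syt11, a synaptotagmin that does not bind calcium, was also below 0 in all 3 replicates, with -0.23, -0.01 and -0.06. Its second pair of replicate 2 stood at 0.07. Its arrays followed the dye as well, from -0.04 to -0.90 with the collagen RNA in Cy3 and from -0.04 to 0.31 with it in Cy5. Syt1, the calcium sensor of fast transmitter release, had 0.12, -0.02 and -0.08, a mean of 0.01 ± 0.10. Syt13 had 0.04, -0.03 and -0.41, and Syt10 had 0.09, 0.07 and -0.24. Syt9, a further fast calcium sensor, had -0.02, -0.21 and 0.02. Syt4, which does not act as a calcium sensor for fast release, had -0.09, 0.02 and 0.03. Syt8 spread from -0.38 in replicate 2 to 0.38 in replicate 3, with -0.01 in replicate 1. Apart from Syt5 and Syt11, the tested synaptotagmins took both signs over the replicates.

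The SNARE Snap25 and the proteins that act on the SNARE complex showed no common direction. Snap25, which supplies a pair of helices to the synaptic SNARE bundle, had -0.12, 0.18 and -0.13, a mean of -0.03 ± 0.18. Cplx1, complexin 1, which clamps and then speeds fusion, had -0.11, 0.04 and -0.24. Stxbp5, or tomosyn, which competes for syntaxin and holds release back, had -0.21, -0.05 and 0.45, the highest mean of the class at 0.06 ± 0.34. Snap91, or AP180, is a clathrin adaptor that retrieves vesicle membrane and is no SNARE despite its symbol; it had -0.08, -0.16 and 0.26. Each of these 4 genes took both signs.

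A further 8 synaptic genes lacked a value in at least 1 replicate and were not tested. Stx1a, the synaptic syntaxin of the plasma membrane, had 0.10 in replicate 1 and -0.55 in replicate 2. Syn3 had -0.10 and -0.02 and Rab3b -0.10 and -0.11 in the same replicates. Rab27a had 0.06 and 0.08, and Syt7, a slow calcium sensor, 0.16 and -0.18. Rab3d had 0.17 in replicate 1 and -0.15 in replicate 3. Cplx2 and Syt6 gave no ratio on any array, and for both 9 of 10 arrays showed a scan with signal in channel A alone.

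The 49 general genes lay around the median of the array. Of these, 8 were below 0 and 5 above 0 in all 3 replicates. In the 3 replicates their medians were -0.01, -0.00441 and -0.02. The widest values again came from replicate 3, in which the SD over the general genes was 0.29, against 0.11 in each of replicates 1 and 2. Over all tested probes the SD was 0.30 in replicate 3, 0.19 in replicate 1 and 0.15 in replicate 2.

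**Figure D2:**
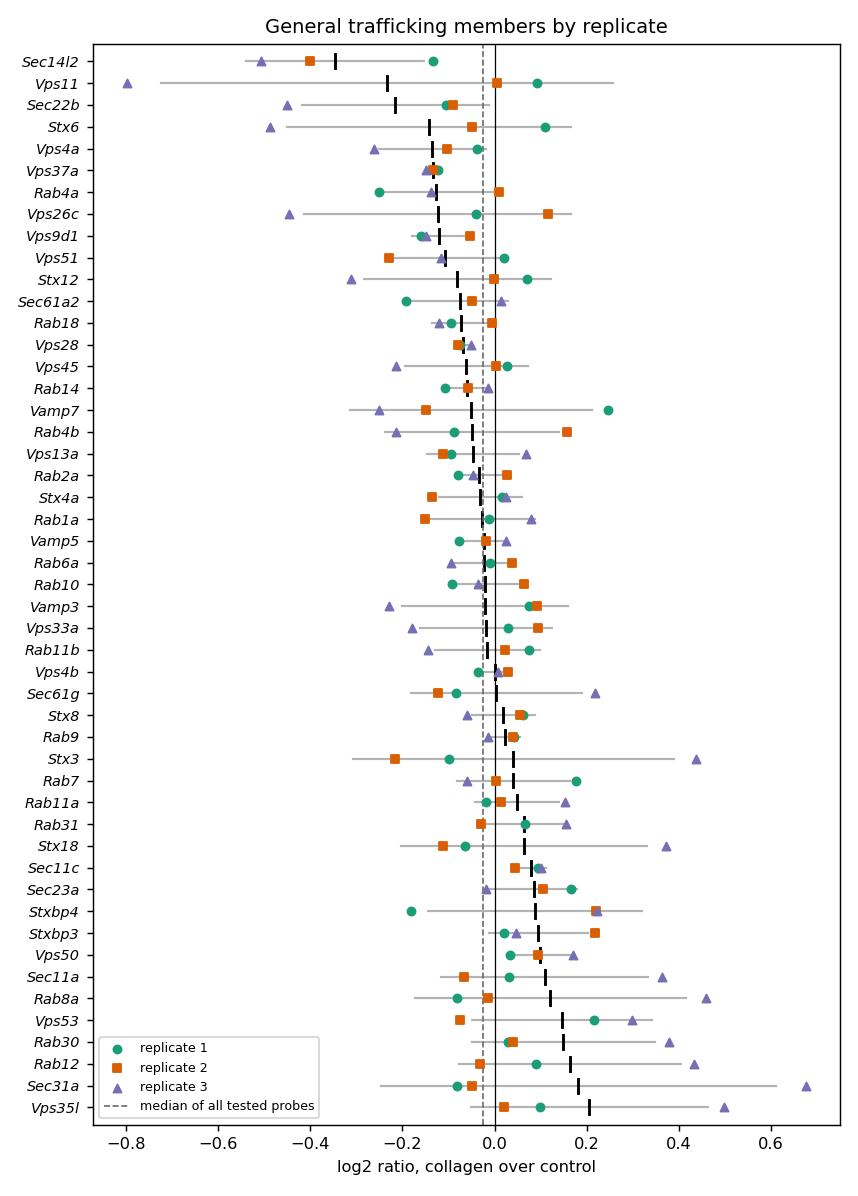
The 49 general trafficking genes tested, one row per gene, with the log2 ratio of collagen over control on the x axis. Symbols, ticks and lines are the replicates, their mean and the mean ± SD. Means run from -0.35 for Sec14l2 to 0.21 for Vps35l, and the outlying symbols are mostly those of replicate 3.

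Means beyond 0.2 that kept one sign over the 3 replicates were reached by 4 of the 69 members, against 7.25% of all tested probes. They were Syn1, Sec14l2 and Sec22b below 0, and Vps35l above it. At a bound of 0.5 there were 0 members, against 0.314% of all probes. Sec14l2, a lipid-transfer protein of the Sec14 family that binds vitamin E and is no part of the fusion machinery, had -0.13, -0.40 and -0.51. Its mean was -0.35 ± 0.19 (SD, n = 3), with a limma unadjusted p of 0.0134 and an adjusted p of 0.827. Its log2 intensity averaged 15.97 in the collagen channel and 16.31 in the control channel, the lowest of the tested members. The mean of Sec14l2 depended on the background correction, with -0.16 without any and -0.09 with normexp. Sec22b, a SNARE of traffic between endoplasmic reticulum and Golgi, had -0.11, -0.09 and -0.45, a mean of -0.22 ± 0.20. Vps35l, a subunit of the retriever complex that recycles membrane proteins from endosomes, had 0.10, 0.02 and 0.50, a mean of 0.21 ± 0.26.

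**Figure D3:**
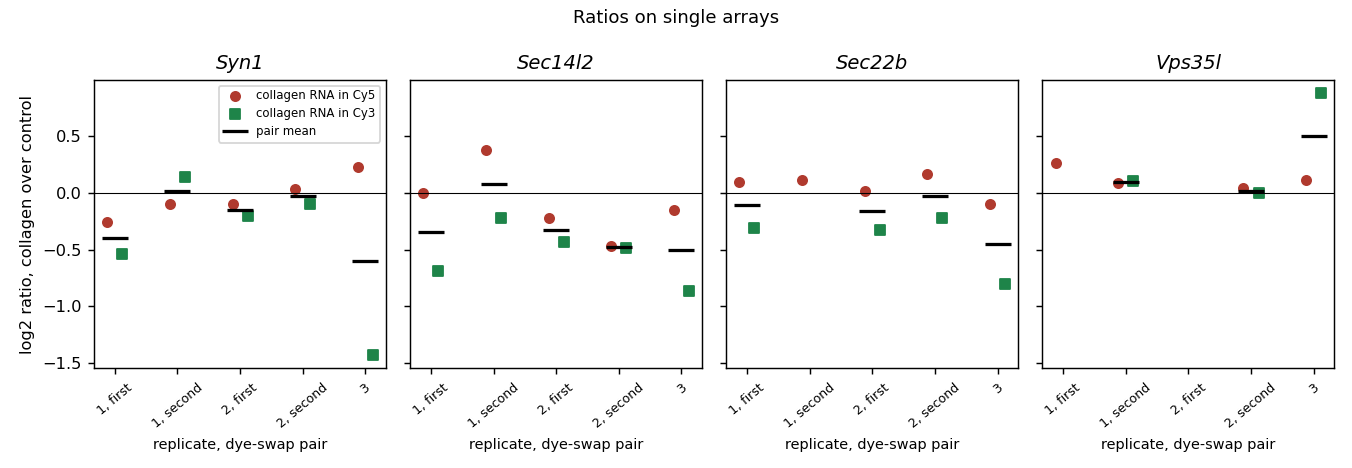
Log2 ratios of collagen over control on single arrays for Syn1, Sec14l2, Sec22b and Vps35l, whose means exceed 0.2 and keep one sign over the replicates. The x axis gives the replicate and the dye-swap pair, colours the dye of the collagen RNA, and black bars the pair mean. In replicate 3 the array with collagen RNA in Cy3 lies apart from its partner for Syn1 (-1.43 against 0.23), Sec14l2 (-0.86 against -0.15), Sec22b (-0.81 against -0.09) and Vps35l (0.88 against 0.12).

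For some of these 4 genes single arrays differed between the dye orientations. For Syn1 the arrays of replicate 3 stood at 0.23 with the collagen RNA in Cy5 and at -1.43 with it in Cy3. The second pair of replicate 1 ran the other way, with -0.10 in Cy5 and 0.14 in Cy3. Sec14l2 was below 0 on all 5 arrays with the collagen RNA in Cy3, from -0.22 to -0.86, and ran from -0.47 to 0.38 on the arrays with it in Cy5. Sec22b was below 0 on its 4 measured arrays with collagen RNA in Cy3, from -0.22 to -0.81, and from -0.09 to 0.17 on the 5 others. Vps35l had 0.09 with the collagen RNA in Cy5 and 0.11 with it in Cy3 in the second pair of replicate 1, and differed widely only in replicate 3. The ratio of channel B over A, in which the treatment cancels, was 0.25 for Sec14l2, 0.25 for Sec22b, 0.30 for Syn1 and -0.12 for Vps35l. None of these channel ratios passed the test. For all members 0 of 69 passed it, against 1.33% of all probes, with ratios from -0.29 to 0.32.

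Promoter sequence was available for 3 of these 4 genes, and is shown because they are the members with the largest consistent means. The 250 bases before the annotated start are given 5′ to 3′ from RefSeq on GRCm38.p6. Capitals mark matches to CRE (TGACGTCA), CCAAT and GC box (GGGCGG) letters on either strand.
Syn1, chrX:20920919-20921168, minus strand: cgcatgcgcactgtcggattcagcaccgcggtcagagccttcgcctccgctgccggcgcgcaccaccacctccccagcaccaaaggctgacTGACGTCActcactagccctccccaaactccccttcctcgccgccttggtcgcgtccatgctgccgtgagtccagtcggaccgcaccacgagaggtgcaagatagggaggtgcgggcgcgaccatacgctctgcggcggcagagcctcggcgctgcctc
Sec14l2, chr11:4118730-4118979, minus strand: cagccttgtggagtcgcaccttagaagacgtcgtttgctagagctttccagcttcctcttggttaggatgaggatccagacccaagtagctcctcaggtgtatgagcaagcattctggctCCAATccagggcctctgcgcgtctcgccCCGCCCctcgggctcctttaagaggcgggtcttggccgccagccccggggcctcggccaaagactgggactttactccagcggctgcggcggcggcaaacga
Sec22b, chr3:97900977-97901226, plus strand: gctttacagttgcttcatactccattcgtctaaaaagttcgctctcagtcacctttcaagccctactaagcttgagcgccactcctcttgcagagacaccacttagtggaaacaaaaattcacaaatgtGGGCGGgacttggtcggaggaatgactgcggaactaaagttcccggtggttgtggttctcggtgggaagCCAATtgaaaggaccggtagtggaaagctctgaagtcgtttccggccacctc

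Syn1 carries a full CRE, the palindrome bound by CREB family factors, 159 to 152 bases before the start, and neither a GC box nor a CCAAT box. Sec14l2 and Sec22b each carry a GC box and a CCAAT box and no CRE. Promoters of 15 of the 20 synaptic and 36 of the 49 general genes were in the table, beside 27025 genes in all. A GC box was found in 86.7% of the synaptic, 66.7% of the general and 32.9% of all promoters. A CCAAT box was found in 26.7% of the synaptic, 50% of the general and 34.5% of all promoters. The letters of a TATA box (TATAAA), on either strand and anywhere in the window, were in 0%, 5.56% and 13%. The general matches were on the opposite strand, 218 to 213 bases before the start in Rab7 and 85 to 80 in Stx3. The CRE was in 1 synaptic and 1 general promoter (Syn1 and Stxbp3), beside 1.62% of all promoters. The full NRF1 palindrome was in Stxbp5 and Stx12, beside 0.781% of all promoters. The CLEAR element, known from lysosomal genes, was in Vps33a, beside 0.259% of all. An exact match to the core letters of the RE1 element was found in no member and in 0.0296% of all promoters. Near matches were not counted, and the Syn1 window shown above holds one. The median GC content was 64.8% in the synaptic, 61.6% in the general and 52% in all promoters. These letter matches describe the windows and show no binding.

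Among the SNAREs outside the synaptic class, no direction was shared. Of the 6 syntaxins tested, 3 had means above 0 and 3 below. Stx6, a SNARE of the trans-Golgi network, had 0.11, -0.05 and -0.49, and Stx12, of recycling endosomes, 0.07, -0.00149 and -0.31. Stx3, a plasma-membrane syntaxin, had -0.10, -0.22 and 0.44, and Stx18, of the endoplasmic reticulum, -0.07, -0.11 and 0.37. In these 4 genes replicate 3 lay farthest from 0. The 3 vesicle SNAREs Vamp3, Vamp5 and Vamp7 had means between -0.05 and -0.02. Vamp7, which acts on lysosomes and in neurites, ran from 0.25 in replicate 1 to -0.25 in replicate 3. The Stxbp proteins, which bind syntaxins, had means above 0 in all 3 tested genes, 0.10 for Stxbp3, 0.09 for Stxbp4 and 0.06 for Stxbp5. Stxbp4 and Stxbp5 took both signs over the replicates, and the family median in replicate 1 was -0.18. Stxbp2, not tested, had -0.44 in replicate 1 and -0.12 in replicate 2.

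The Rab GTPases, with 19 tested of 39 genes named Rab, had a median of -0.02, and 12 lay below 0. Rab12, a Rab of endosomes and lysosomes, had 0.09, -0.03 and 0.43, the highest mean of the family at 0.16 ± 0.24. Rab30, a Golgi Rab, had 0.03, 0.04 and 0.38, and Rab8a, of exocytic traffic to the plasma membrane, -0.08, -0.01 and 0.46. In these 3 genes only replicate 3 lay over 0.1. Rab4a, of fast endosomal recycling, had -0.25, 0.01 and -0.14. The brighter probe of Rab14, a Rab between Golgi and endosomes, averaged -0.06 ± 0.05. The early secretory Rabs Rab1a and Rab2a had means of -0.03 each, the late endosomal Rab7 0.04, and the recycling Rabs Rab11a and Rab11b 0.05 and -0.02. The intervals of these 5 genes lay between -0.23 and 0.25.

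The Vps genes, named after yeast mutants in sorting to the vacuole, had 10 of 14 means below 0, with a median of -0.07. Vps11, a core subunit of the HOPS tether of late endosomes and lysosomes, had 0.09, 0.01 and -0.80, so its mean of -0.23 ± 0.49 came from replicate 3. The ESCRT genes, which bud vesicles into multivesicular bodies, were tighter than Vps11. Vps37a of ESCRT-I had -0.12, -0.13 and -0.15, with the narrowest SD of all members, 0.01. Vps28, also of ESCRT-I, had -0.08, -0.08 and -0.05. Vps4a, an ATPase that takes ESCRT filaments apart, had -0.04, -0.10 and -0.26, while its paralogue Vps4b had -0.04, 0.03 and 0.01. The first 3 were thus below 0 in every replicate, as were 20.8% of all tested probes. Their limma adjusted p-values were 0.827, 0.856 and 0.827. Of the tethers at the Golgi and endosomes, Vps53 had 0.22, -0.07 and 0.30, Vps51 0.02, -0.23 and -0.12, and Vps50 0.03, 0.09 and 0.17.

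The 8 tested Sec genes do several jobs. Of the COPII coat, which buds vesicles from the endoplasmic reticulum, Sec31a had -0.08, -0.05 and 0.68 and Sec23a 0.17, 0.11 and -0.02. Sec31a had the third widest SD of all members, 0.43. Sec11c, a catalytic subunit of signal peptidase, had 0.09, 0.04 and 0.10, a mean of 0.08 ± 0.03, and its paralogue Sec11a 0.03, -0.07 and 0.36. The translocon subunits Sec61a2 and Sec61g had means of -0.08 and 0.00413.

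The 4 genes measured by a pair of probes gave mixed answers as a check within the arrays. The probes of Vps37a had means of -0.13 and -0.15, both below 0 in every replicate. Those of Vps50 had 0.10 and -0.10, the brighter above 0 and the dimmer below 0 in every replicate. The probes of Vamp5 had -0.02 and 0.12 and those of Rab14 -0.06 and -0.000795. The brighter probe of Rab14 was below 0 in every replicate, and the dimmer one had -0.18, -0.16 and 0.35. Of the 3 genes with a probe of one sign in all replicates, the other probe thus matched it for Vps37a, opposed it for Vps50 and took both signs for Rab14.

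Pairs that share a replicate number in the titles, read as repeat hybridisations of the same RNAs, give a scale for the measurement noise. Among members with both pairs, the median gap between the 2 pairs of replicate 1 was 0.15 (36 genes) and of replicate 2 was 0.11 (42 genes). The median gap between replicates 1 and 2 was 0.09 over the 69 genes, and between replicate 3 and replicates 1 and 2 it was 0.20 and 0.18. Gaps between pairs and between replicates rest on unlike sets of genes and numbers of arrays, so their sizes are not directly comparable. Across the 69 genes the ratios correlated at 0.13 between replicates 1 and 2, at -0.07 between 1 and 3 and at -0.20 between 2 and 3. These are correlations across genes on shared arrays and are given as a description. The first pair of replicate 1 lay low as a whole, with medians of -0.11 over members and -0.15 over all tested probes.

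**Figure D4:**
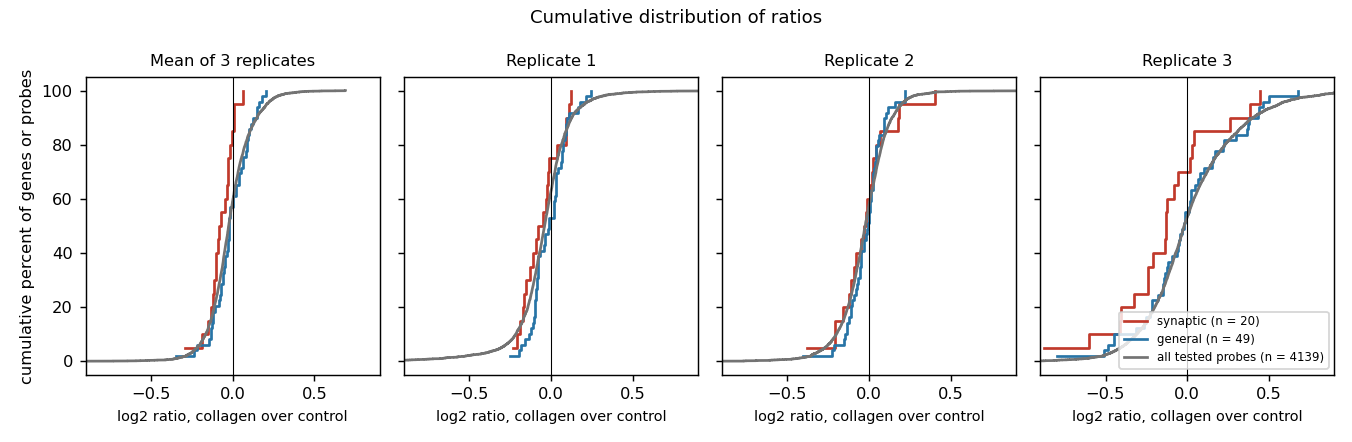
Cumulative percent of the 20 synaptic genes, the 49 general genes and the 4139 tested probes (y axis) by log2 ratio of collagen over control (x axis), for the mean and for each replicate. The synaptic line lies left of the others mainly in replicate 3, where its median is -0.13 and that of all probes -0.02.

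Trafficking genes with other names were counted for comparison, from a list by function of 137 genes. Of these 80 have a probe and 54 were tested, with 19 means above 0, 35 below and a median of -0.04. None passed the test. All 8 tested genes of the COPI and COPII coats outside the Sec names had means below 0, where 59.2% of all tested probes lay below 0. They ran from -0.18 for Sar1a, the GTPase that starts the COPII coat, to -0.02 for Copg1, a COPI subunit. The 2 tested COPII coat genes with Sec names went the other way, Sec23a with a mean of 0.08 and Sec31a with 0.18. Of 10 genes of endocytosis 7 lay below 0, of 8 adaptor genes 6, of 9 further vesicle proteins 4 and of 5 other SNAREs 3. The 3 tested NSF and SNAP cofactors, which recycle SNAREs after fusion, had means from 0.01 to 0.06. Both tested genes of the active zone and both Arf GTPases lay below 0, as did 1 of 3 of the exocyst and 2 of 4 Rab regulators.

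The lowest means of that list were those of Slc32a1, the vesicular GABA transporter, at -0.27 ± 0.03, of the AP-1 adaptor subunit Ap1s1 at -0.21 ± 0.18 and of the neuronal AP-3 subunit Ap3b2 at -0.19 ± 0.29. The highest were Scamp2, a carrier protein of recycling vesicles, at 0.19 ± 0.60, the adaptor Gga2 at 0.16 ± 0.17 and the SNARE Use1 at 0.11 ± 0.15. Scamp2 stood at 0.89 in replicate 3 and at -0.20 and -0.11 in the others. None of these 6 passed the test.

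No marker of a cell type passed the test. Of 5 tested neuron markers, Snap25 among them, 4 had means below 0, with a median of -0.09 and medians of -0.05, -0.03 and -0.13 in the replicates. All 6 markers of midbrain dopamine neurons with a probe, Th and Pitx3 among them, were measured in every replicate. Of these 3 were below 0, with a median of 0.07 and medians of 0.00341, 0.05 and 0.11 in the replicates. Th, tyrosine hydroxylase, the rate-limiting enzyme of dopamine synthesis, had 0.03, 0.13 and 0.88, a mean of 0.35 ± 0.47. Of 2 serotonin markers 1 was below 0, and of 2 choroid plexus markers 1. The only tested marker of endothelium, Eng, averaged 0.02 and that of the forebrain, Neurod6, 0.05, and no red cell marker had a probe. Of 4 oligodendrocyte markers 3 were below 0, of 5 microglia markers 3, and both tested astrocyte markers. All 5 tested markers of the cerebellum were below 0, with a median of -0.15 and medians of -0.26, -0.26 and -0.20 in the replicates, led by Zic4 at -0.40 and Neurod1 at -0.38. The part of cell composition or dissection in the synaptic lean was not tested.

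**Figure D5:**
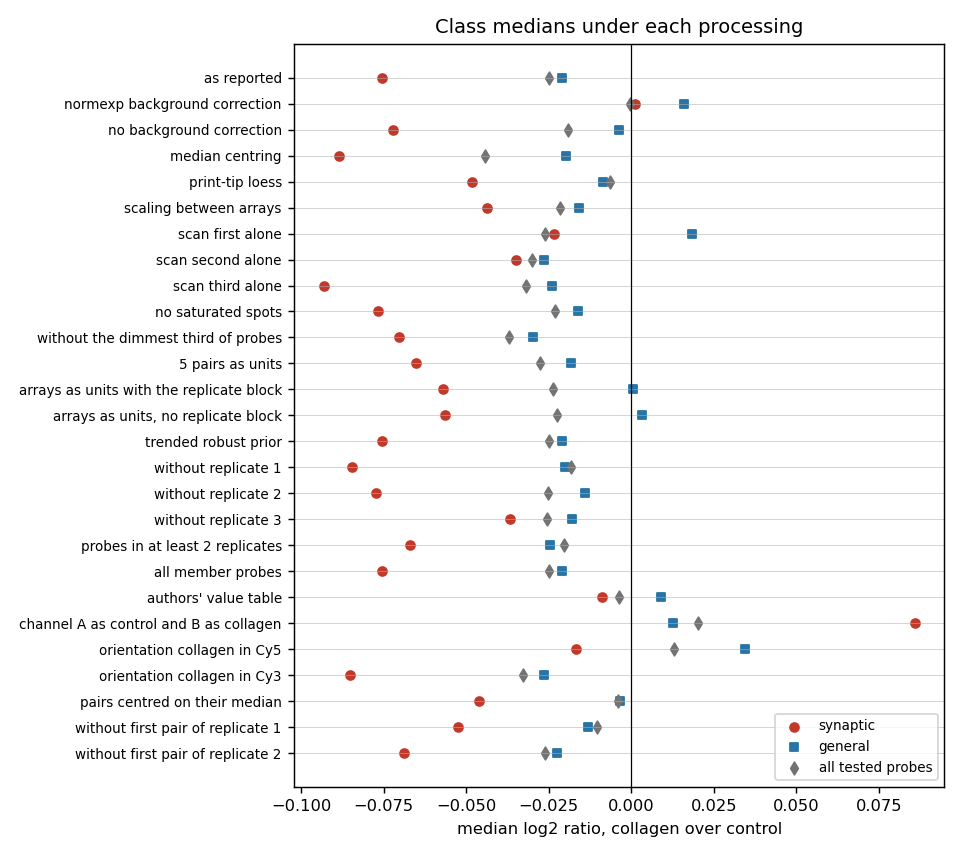
Median log2 ratio of collagen over control (x axis) for the synaptic genes, the general genes and all tested probes under each processing (y axis). The synaptic median lies below 0 in all but 2 of the 26 alternatives, normexp correction and channel letters read as the RNA. The median of all tested probes also lies below 0 in 24 of the 26. The direction of the authors' value table, among the 26, is unstated.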

How the data were processed

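RNA from the midbrain of collagen-injected and control mice was compared on 10 two-colour arrays, read as 29 scans. Per the file headers, the deposited intensities of channels A and B were already corrected for background; the spot background is given beside them, also as an intensity. Per the file headers a saturation factor, a fraction from 0 to 1, was deposited for each spot. No normalization is recorded there, and the headers name no software. The authors' deposited value table has for every probe and array a score whose log base, scaling and direction are unstated; its column medians lie between -0.00862 and 0.00332, and it served as an alternative.

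Spots were matched to probe numbers by printing block, then row and column; read so, the size of the correlation with the authors' table was 0.67 to 0.835 on the 10 arrays, and read by slide rows at most 0.0966. Spots flagged X, Y or Z, or with an intensity of 0 or less, were left out. The rest were normalised within each scan by loess (limma 3.58.1, R 4.3.3, span 0.3, 4 iterations), averaged over scans, turned to collagen over control, and averaged over the arrays of a pair and the pairs of a replicate. Each array gave 4496 to 8425 ratios. The replicate means were tested against 0 with limma over the 4139 probes measured in all 3 replicates, Benjamini-Hochberg adjusted, threshold 0.05. The averaging and the test were checked on simulated data. The number of arrays limits the precision.

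Symbols came from the platform table, in which 9066 probes have 1 symbol, 12 several and 1002 none; all 107 members matched a current gene identifier. Members, lists, classes, functional groups, motifs and tests were chosen with earlier results of these data known. The text names every tested synaptic gene, the 6 highest and 6 lowest general genes, the 3 widest and 3 narrowest, those over 0.2 with 1 sign, genes with several probes, and the 3 highest and lowest of the other trafficking genes; other members were named by role after their values were seen. Alternatives covered background correction, normalization, scans, saturation, dim probes, units, prior, replicates, pairs, the authors' table and the channel letters. Replicate numbers and dye-swap pairs were read from the sample titles, so n = 3 and the repeat pairs rest on that reading. No paired fit between groups is needed, since each array holds both RNAs.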

Additional observations from a re-analysis of the deposited data

Results flagged for a closer look

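Among 58 sets of 4 or 5 arrays of one dye orientation, over the members named by rule, 5 sets had an array far from the others; chance marks about 1 in 20 sets. With the collagen RNA in Cy5, the first-pair array of replicate 2 stood at 0.61 for Syt5, where the nearest other array had 0.09. With the collagen RNA in Cy3, the first-pair array of replicate 2 stood at 0.50 for Syt9, where the nearest other had 0.12. The remaining 3 come from replicate 3. Its array with the collagen RNA in Cy3 stood at 0.56 for Rab8a, where the nearest other had -0.32. Its array with the collagen RNA in Cy5 stood at 0.48 for Vps53, where the nearest other had 0.13, and at 0.90 for Sec31a, where the nearest other had 0.17.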

How the results depend on the processing

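No member passed the test for collagen against control in any of the 24 alternatives that allow calls, of 26 run. With arrays as units, the fit with the replicate block called 0 of 4139 probes for collagen against control and 1 probe for the channel, and the fit without it 0 and 3 probes. The median of the synaptic members, -0.08 as reported, was 0.00105 with normexp correction, -0.00873 in the authors' table, -0.0167 over arrays with the collagen RNA in Cy5 and 0.0859 with the channel letters read as the RNA. It was below 0 in 24 of 26 alternatives, and so was the median of all tested probes. The authors' table was taken as deposited with its direction unstated, so signs in it cannot decide on the lean. Of the synaptic genes measured, 9 of 20 were below 0 with normexp and with the letters, 9 of 16 in the authors' table and 10 of 15 on the first scan alone, against 17 of 20 as reported. Without replicates 1, 2 and 3 these counts were 14 of 20, 15 of 21 and 18 of 25. The difference of medians, synaptic against general trafficking members, -0.05 as reported, was -0.00846 on the second scan alone and 0.0733 with the letters. Leaving out a replicate gave values from -0.06 to -0.02.

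The 4 members with a mean over 0.2 and one sign became 0 with normexp, in the authors' table and with arrays as units, with or without the replicate block. They became 1 without background correction, with scaling between arrays, with 5 pairs as units and without the first pair of replicate 1, an alternative chosen after seeing the data. They became 2 with print-tip loess, on the second scan alone, on the third scan alone and without the dimmest probes. They became 12 with the letters and over arrays with the collagen RNA in Cy5, and 16 over those with it in Cy3 and with median centring. Leaving out a replicate gave 3 to 10, the 10 without replicate 1 or 2, where fewer replicates need to share a sign. The causes of the other shifts were not tested. Among 876 ratios of 37 named members under the alternatives, 783 moved by less than 1 SD and 126 changed sign, 107 of them outside the channel letters. The number of arrays limits the precision.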
